A study of Mus musculus with 16 samples.

Results

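MAC-1- hematopoietic stem cells (HSCs) isolated 4 weeks after transplantation were compared with MAC-1- HSCs at steady state (SS), across all genes. MAC-1 is the integrin made of CD11B (gene Itgam) and CD18 (gene Itgb2), and the comparison asked which genes differ when regenerating and undisturbed HSCs of the same sort phenotype are set side by side. The members were chosen by the sample labels alone and were 6 of the 16 RNA-seq samples of the study, 3 of 4 week MAC-1- and 3 of SS MAC-1- HSCs. All HSCs came from wild-type (WT) mice of the B6.SJL strain and were sorted from cKIT-enriched bone marrow as lineage-negative (CD3e, B220, Gr, NK1.1 and Ter119), cKIT+, SCA1+, CD48- and CD150+ cells, called LSK SLAM. The 4 week HSCs were taken from recipients that had been given 900 cGy of irradiation and 8000 LSK cells. The SS mice were labelled untreated. Age and sex of the animals and the number of animals behind a sample were not given in the sources used here, so the p-values measure the spread between these samples, which may be technical. The other 10 samples (3 SS MAC-1low, 4 of 4 week MAC-1low and 3 of 4 week MAC-1+ HSCs) shared the estimate of the spread, and the MAC-1low samples also gave the contrast described last.

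HSCs maintain blood formation by balancing self-renewal with differentiation, and most of them divide rarely in undisturbed marrow. After transplantation into an irradiated host the few cells that engraft have to divide and to supply progenitors of every lineage, which brings the cell-cycle machinery, the nucleolus and the mitochondria into use. Part of the HSC pool carries transcripts of the megakaryocyte lineage, which makes platelets, and such platelet-biased HSCs are known to respond to stress.

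The 6 libraries held 13781278 to 28580658 counts. Counts were compared as CPM, the counts of a gene divided by the library's total on a common scale, after scaling of the libraries by the trimmed mean of M values (TMM). Between 14533 and 15492 genes had a count in 5 of the libraries and 17576 in SS MAC-1- replicate 3, which stood apart in this respect. Across genes, log2 CPM correlated at 0.852 to 0.873 between SS replicates and at 0.927 to 0.937 between 4 week replicates. Between SS and 4 week samples it correlated at 0.864 to 0.895. Each SS sample thus correlated better with every 4 week sample than with the other SS samples. Dropout was common for libraries made from small numbers of cells. Of the 9222 genes with a mean of at least 100 counts, 12.89% had a 0 in at least 1 of the 6 libraries. In bulk samples such as these, fewer cells of a type and less RNA per cell cannot be told apart.

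The sort itself was checked first. Itgam was at 0, 0.262 and 0.102 CPM in the SS and at 0, 1.78 and 0 CPM in the 4 week samples. A count of 0 allowed up to 0.105 to 0.218 CPM in these libraries. The values lay close to that limit except in 4 week replicate 2, which had 47 Itgam counts. Itgb2, which also pairs with other CD11 chains, was at 10.4, 0 and 7.28 CPM in SS and 31.4, 18.8 and 30.2 CPM at 4 weeks, without overlap but with an adjusted p of 0.629 (edgeR quasi-likelihood test with Benjamini-Hochberg adjustment, used throughout). Of the positive sort markers, Ly6a (encoding SCA1) overlapped between the groups at 197 to 413 CPM in SS and 202 to 265 CPM at 4 weeks. Slamf1 (CD150) was at 53.7, 16.6 and 10.4 CPM in SS and 68.6, 74 and 71.1 CPM at 4 weeks (adjusted p = 0.823). Cd48, the marker absent from the surface of sorted cells, had transcripts in both groups, at 0, 25.5 and 5.9 CPM in SS and 71.7, 89.9 and 133 CPM at 4 weeks. Its groups did not overlap, and its adjusted p was 0.576.

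Few genes passed the test. Platelet factor Pf4, the kinetochore gene Ska1 and the small GTPase Rap1b rose at 4 weeks, while the HSC genes Procr, Hlf and Kit, the interferon-induced Ifitm1 and the glutathione transferases Gstm1 and Mgst1 fell. Of 13661 genes tested, 52 (0.381%) were past both thresholds, an adjusted p below 0.1 and a log2 fold change beyond 1 in either direction. Of these, 25 (0.183%) were higher and 27 (0.198%) lower at 4 weeks. With the adjusted p alone 59 genes (0.432%) were called, 29 higher (0.212%) and 30 lower (0.22%), and 19 of the 59 had an adjusted p below 0.05. In 50 of the 52 genes the 3 SS and 3 4 week samples did not overlap, as was the case for 2273 (16.6%) of all genes tested. Calls and overlap rest on the same samples, so the lack of overlap in a called gene is no separate support. The median log2 fold change of all genes was -0.03, with 6577 genes positive and 7013 negative.

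The number of calls depended on the model and on single libraries. DESeq2 called 966 genes (7.0%; 3.75% higher and 3.24% lower), with all 52 among them, and limma-voom 80 (0.586%), with 37 of the 52. These shares are for both thresholds. List members were called by each tool on the adjusted p alone, for which the DESeq2 and limma-voom shares are not given here. A fit of the 6 compared samples alone called 6 genes, all of them among the 52. Leaving out SS MAC-1- replicate 2 gave 30 genes, and leaving out 4 week MAC-1- replicates 1, 2 or 3 gave 17, 17 and 23. Replicate 4 of 4 week MAC-1low left out gave 34 genes, and replicate 3 of 4 week MAC-1+ left out gave 32. In all 6 fits that left out 1 of the compared libraries, 11 genes remained past both thresholds, including Pf4, Ska1, Rap1b and Plac8 among the higher and Ifitm1, Gm19590, Ccl4, Zfp36l2, Gstm1 and Mgst1 among the lower.

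**Figure D1:**
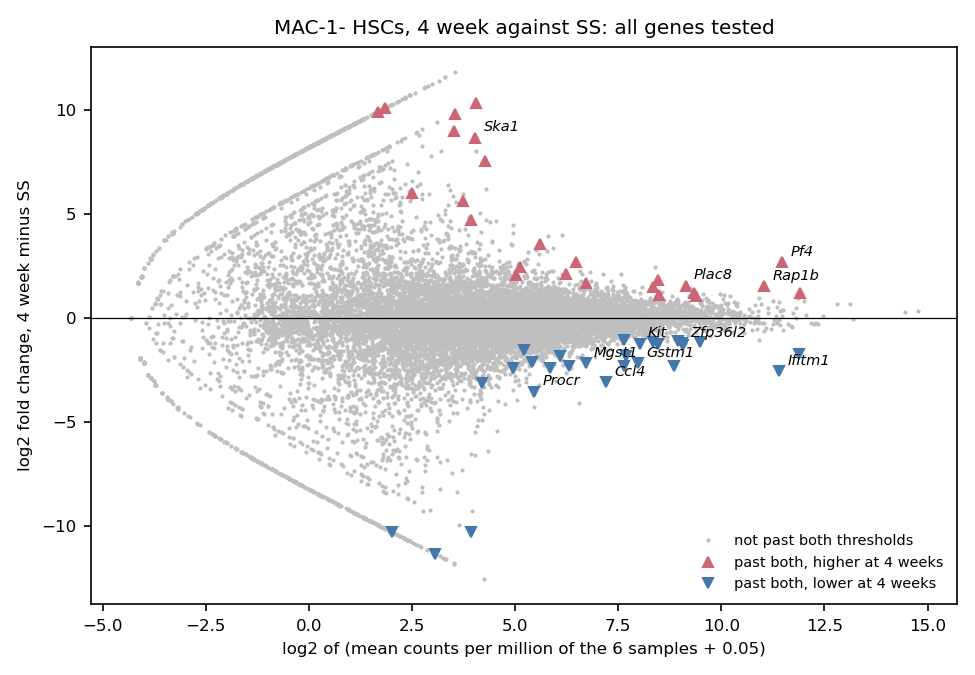
Log2 fold change (4 week minus SS, vertical axis) of the 13661 genes tested in MAC-1- HSCs against the log2 of their mean CPM + 0.05 (horizontal axis). The 52 genes past both thresholds are coloured triangles, 25 pointing up for higher and 27 pointing down for lower at 4 weeks. The outer curved bands are genes with no count in one of the groups.

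**Figure D2:**
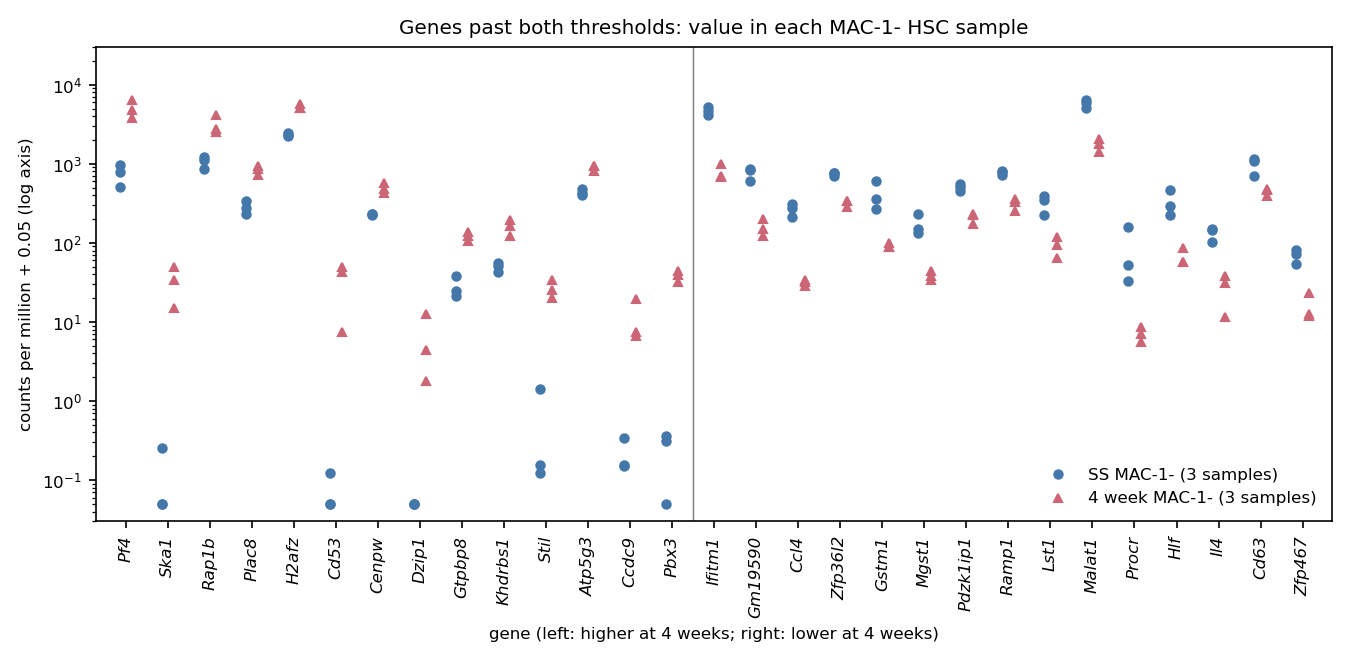
CPM + 0.05 (log axis) in each of the 3 SS (circles) and 3 4 week (triangles) MAC-1- samples, for 29 genes past both thresholds. The genes drawn were selected to have no overlap of circles and triangles, so their separation is not a result. Several of the higher genes, such as Ska1, Cd53 and Pbx3, have SS values at or near 0.

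The promoters of Pf4, Rap1b, Ifitm1 and Gstm1 are shown for reference (RefSeq, GRCm38.p6, 250 bases before to 50 after the start, gene strand). These are list members whose calls held in every fit that left out a compared library. Mgst1 and Ska1 held too, but the rule capped the number per direction and left out the chromosome of Ska1. Windows of Atp5g3 and E2f8 were also taken by the rule and searched, but their calls held in none of those fits. Capitals mark any of 3 motifs searched on both strands, namely AGATAA, bound by GATA factors, then GGAAGT, bound by ETS factors, and lastly CACGTG, the E-box bound by MYC. In the Pf4 window the ETS motif is on the other strand and so reads ACTTCC. The first window is that of Pf4 at chr5:90772185-90772484 (plus strand), the second that of Rap1b at chr10:117845925-117846224 (minus strand), the third that of Ifitm1 at chr7:140967826-140968125 (plus strand) and the last that of Gstm1 at chr3:108017924-108018223 (minus strand).
Pf4: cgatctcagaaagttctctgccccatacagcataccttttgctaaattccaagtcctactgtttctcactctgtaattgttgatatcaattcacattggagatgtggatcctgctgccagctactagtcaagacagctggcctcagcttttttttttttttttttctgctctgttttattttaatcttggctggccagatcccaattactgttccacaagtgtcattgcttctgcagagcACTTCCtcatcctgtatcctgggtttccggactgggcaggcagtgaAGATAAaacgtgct
Rap1b: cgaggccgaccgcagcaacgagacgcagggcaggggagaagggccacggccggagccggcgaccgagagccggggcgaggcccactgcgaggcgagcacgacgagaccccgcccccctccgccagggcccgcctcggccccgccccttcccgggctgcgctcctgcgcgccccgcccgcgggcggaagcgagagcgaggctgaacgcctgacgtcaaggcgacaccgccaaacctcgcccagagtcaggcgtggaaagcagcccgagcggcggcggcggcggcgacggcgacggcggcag
Ifitm1: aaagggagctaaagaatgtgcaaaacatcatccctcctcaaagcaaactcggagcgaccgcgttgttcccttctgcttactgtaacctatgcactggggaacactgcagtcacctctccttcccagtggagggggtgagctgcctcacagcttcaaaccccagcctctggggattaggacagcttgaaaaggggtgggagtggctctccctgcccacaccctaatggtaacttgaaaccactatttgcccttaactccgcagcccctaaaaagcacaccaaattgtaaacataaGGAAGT
Gstm1: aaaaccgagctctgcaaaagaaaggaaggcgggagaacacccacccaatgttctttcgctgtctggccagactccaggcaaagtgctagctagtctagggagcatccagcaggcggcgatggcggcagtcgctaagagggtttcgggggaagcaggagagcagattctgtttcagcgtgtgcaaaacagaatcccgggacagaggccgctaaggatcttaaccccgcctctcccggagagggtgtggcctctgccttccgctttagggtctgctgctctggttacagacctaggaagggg
The Pf4 window held 1 AGATAA and 1 GGAAGT, and the Ifitm1 window held 1 GGAAGT. RefSeq and GENCODE M21 place the start at the same base for Pf4 and Gstm1, 61 bases apart for Rap1b and 855 bases apart for Ifitm1. The windows of Rap1b and Gstm1 held none of the 3 motifs. Of the windows not shown, that of Atp5g3 held 1 AGATAA and 1 CACGTG and that of E2f8 none. Among all 32851 windows of this length, 11.2% held AGATAA, 23.8% GGAAGT and 7.2% CACGTG, so each motif is found at many promoters.

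Genes that define HSCs were lower at 4 weeks where they passed the test. Of 35 tested genes of HSC identity and self-renewal, 4 fell, 0 rose and 31 did not pass, and the median log2 fold change of the list was -0.76 against -0.03 over all genes. At an unadjusted p below 0.05, 12 members were lower and 0 higher, beside 4.86% and 5.59% of all genes, and 15 members lay entirely below SS and 2 entirely above it, beside 7.4% and 9.24% of all genes. The summed level of the list was 5002, 4879 and 5936 CPM in SS and 3496, 3517 and 3277 CPM at 4 weeks. Every 4 week sample was below every SS sample.

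Among the transcriptional regulators of this list, Hlf (chr11:90336536-90390895, GRCm38), a factor that keeps HSCs from differentiating, was at 293, 225 and 470 CPM in SS and 57, 87.2 and 56.7 CPM at 4 weeks. The groups did not overlap, and Hlf fell by 2.30 on the log2 scale (SE 0.43, adjusted p = 0.0529). Mecom, encoding the zinc finger factor EVI1 that sustains HSCs, was at 162, 174 and 180 CPM in SS and 63.1, 67.2 and 82.5 CPM at 4 weeks, without overlap but short of the threshold (log2 difference -1.28, SE 0.30, adjusted p = 0.124). Mllt3, a partner in transcription elongation complexes, had a log2 difference of -0.61 (SE 0.27, adjusted p = 0.449). The other 9 regulators were not called either, and in all 11 of the 12 regulators had a negative log2 difference, beside 7013 of 13661 genes tested.

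Among the surface receptors, Procr (chr2:155751117-155755471), encoding the endothelial protein C receptor that marks HSCs, was at 32.6, 52.5 and 159 CPM in SS and 5.59, 6.97 and 8.51 CPM at 4 weeks. All 4 week values were well below all SS values, and Procr fell by 3.53 (SE 0.66, adjusted p = 0.05). Kit (chr5:75574916-75656722), the receptor for stem cell factor and itself part of the sort gate, was at 402, 327 and 360 CPM in SS and 133, 215 and 120 CPM at 4 weeks and fell by 1.22 (SE 0.27, adjusted p = 0.0927). Of the remaining signature genes, Uba7, which activates the ubiquitin-like protein ISG15, was at 262, 264 and 276 CPM in SS and 99.4, 149 and 137 CPM at 4 weeks and fell by 1.06 (SE 0.21, adjusted p = 0.0672). Gm20661 overlaps Uba7 on the same strand, so their reads may not be separable.

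Fgd5, used as a reporter gene for HSCs, was at 13.1, 45.3 and 39.5 CPM in SS and 0.753, 7.96 and 1.69 CPM at 4 weeks (adjusted p = 0.265). Glipr1l1 and Nupr1 also lay below SS in every 4 week sample, with log2 differences of -1.38 (SE 0.66, adjusted p = 0.486) and -0.56 (SE 0.27, adjusted p = 0.489). Socs2, a feedback inhibitor of cytokine signals, overlapped at 65 to 117 CPM in SS and 76.4 to 97.8 CPM at 4 weeks. The 4 calls of the list became 0 when SS replicate 3, 4 week replicate 1 or 4 week replicate 3 was left out, 1 when 4 week replicate 2 was, and 2 when SS replicate 1 or 2 was, while the median stayed between -0.91 and -0.41 over all alternatives. DESeq2 called 11 members lower and limma-voom 2.

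Megakaryocyte and platelet genes were higher at 4 weeks where they passed the test. Of 34 tested, 2 rose, 0 fell and 32 did not pass, and the members' median was 0.75 on the log2 scale. At an unadjusted p below 0.05, 8 members were higher and 2 lower, beside 5.59% and 4.86% of all genes. Entirely above SS lay 13 members and entirely below it 1, beside 9.24% and 7.4% of all genes. The summed level of the list was 9728, 9402 and 11551 CPM in SS and 25058, 18798 and 19402 CPM at 4 weeks, so each 4 week sample exceeded each SS sample. This sum includes the 2 called members, Pf4 and Rap1b. Their means were 755 and 1070 CPM in SS and 4957 and 3132 CPM at 4 weeks.

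Pf4 (chr5:90772435-90773383), the chemokine stored in platelet alpha granules, was at 791, 511 and 964 CPM in SS and 6366, 4728 and 3776 CPM at 4 weeks. The lowest 4 week sample was well above the highest SS sample, and Pf4 rose by 2.71 on the log2 scale (SE 0.38, adjusted p = 0.00678), a 6.56-fold difference. It passed in every alternative, with an adjusted p of at most 0.0600. Rap1b (chr10:117813871-117846035), the small GTPase that switches on platelet integrins, was at 1131, 849 and 1231 CPM in SS and 4091, 2546 and 2758 CPM at 4 weeks and rose by 1.55 (SE 0.23, adjusted p = 0.0107).

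The other granule proteins did not pass. Vwf, the adhesive protein that also marks platelet-biased HSCs, was at 21.2, 8.33 and 33 CPM in SS and 83.2, 101 and 116 CPM at 4 weeks (log2 difference 2.26, SE 0.63, adjusted p = 0.223). Among the receptors, Itga2b (CD41) was at 6.67, 14.1 and 20.1 CPM in SS and 46, 59.9 and 55.5 CPM at 4 weeks (adjusted p = 0.356), and Gp9, a subunit of the von Willebrand factor receptor, at 23.7, 10.6 and 14.5 against 53.7, 74.5 and 89.8 CPM (adjusted p = 0.638). In all 3 genes the groups did not overlap. Of the 12 receptors tested 11 had a positive log2 difference and 0 were called, and 2 of the 4 transcription factors had a positive one. Over all genes, 6577 of 13661 were positive.

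The markers set aside for mature megakaryocytes summed to 34.0 to 86.7 CPM in SS and 114.0 to 169.5 CPM at 4 weeks, over 10 genes that are all also members of the megakaryocyte and platelet list. Tubb1, the platelet tubulin, was at 0 in all 6 libraries, and 0 of the 7 markers tested passed. Their part in the higher Pf4 and Rap1b was not tested. The count of 2 calls held in each of the 6 fits that left out a compared library, and DESeq2 called 6 members higher and limma-voom 3.

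**Figure D3:**
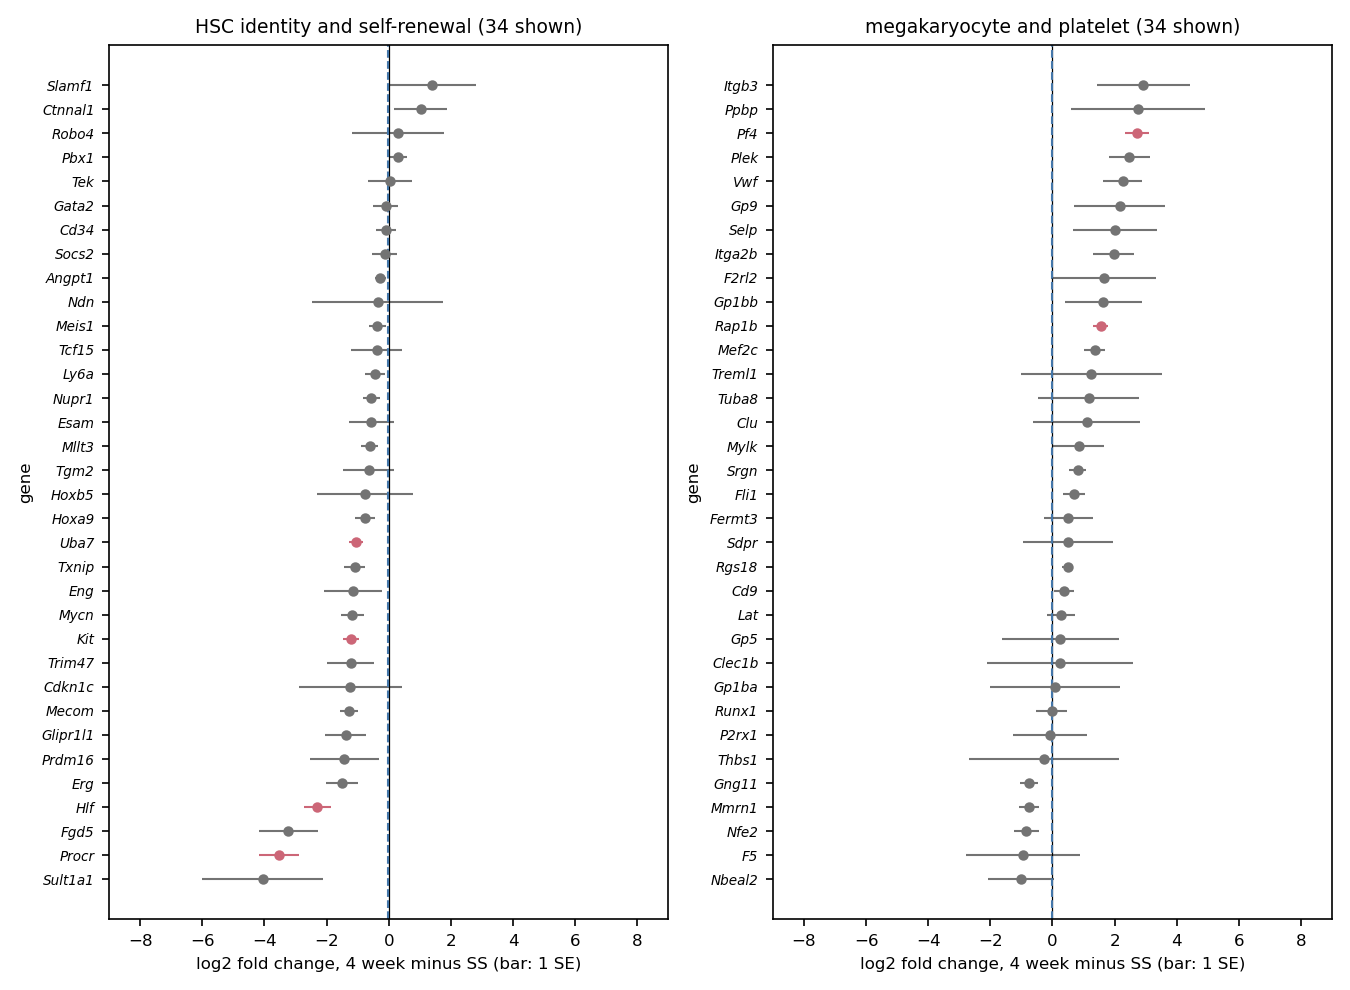
Log2 fold change (4 week minus SS, horizontal axis) with 1 SE for each tested member of the HSC identity list (left, 34 of 35 genes) and the megakaryocyte and platelet list (right, 34 genes). Red points passed the adjusted p, and the dashed line is the median of all genes (-0.03). Most HSC genes lie to the left of it and most megakaryocyte genes to the right, with wide bars for many.

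Genes of the other lineages mostly did not pass. For these and the later lists, the shares of all genes called were 0.212% higher and 0.22% lower. At an unadjusted p below 0.05 those shares were 5.59% higher and 4.86% lower. Of 25 erythroid genes tested edgeR called 0, with 1 higher and 1 lower at an unadjusted p below 0.05, 1 and 1 called by DESeq2 and 0 by limma-voom, and a median log2 difference of 0.08. Gata1, the erythroid and megakaryocytic master regulator, was at 59.6, 52.8 and 0 CPM in SS and 26.2, 50.8 and 41.7 CPM at 4 weeks. Klf1, the factor that switches on globin genes, was at 0, 0.367 and 0 CPM in SS and 1.88, 11.5 and 11.7 CPM at 4 weeks (adjusted p = 0.536), and Gfi1b at 59.7, 19.5 and 47.4 against 54.9, 108 and 165 CPM (adjusted p = 0.535). Mfsd2b, a lipid exporter of red cells and platelets, overlapped between the groups. Car2 and Lmo2, the 2 members with the highest levels, had log2 differences of -0.45 (SE 0.17, adjusted p = 0.379) and -0.19 (SE 0.18, adjusted p = 0.816). Erythroblast markers summed to 28.3 to 74.7 CPM in SS and 23.6 to 28.1 CPM at 4 weeks, with Alas2 at 0 in all 6 libraries.

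Of 15 lymphoid priming genes tested, 1 was called higher and 0 lower, beside 0.212% and 0.22% of all genes. At an unadjusted p below 0.05, 2 were higher and 3 lower, beside 5.59% and 4.86% of all genes. The median log2 difference was 0.17. Flt3, the receptor of multipotent and lymphoid progenitors, was at 1.17, 0.105 and 0.102 CPM in SS and 1.76, 2.16 and 4.83 CPM at 4 weeks (adjusted p = 0.463).

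The Ikaros family factors Ikzf1 and Ikzf2 had log2 differences of 0.42 (SE 0.41, adjusted p = 0.819) and -1.03 (SE 0.32, adjusted p = 0.296), both with overlapping samples. Ets1, Notch2 and Cd86 overlapped too, and Cd86 had its count almost wholly in SS replicate 2 (23.95 CPM). B and plasma cell markers summed to 66.8 to 111.9 CPM in SS and 10.2 to 35.7 CPM at 4 weeks, with Ms4a1 at 0 in all 6 libraries, and NK and T cell markers to 242 to 380 and 323 to 644 CPM, most of it Nkg7. Basophil, mast cell and eosinophil markers summed to 0.105 to 104 and 37.6 to 85.6 CPM, dendritic cell markers to 0.105 to 15.9 and 2.20 to 6.44 CPM, and stromal and endothelial markers to 115 to 159 and 19.3 to 48.9 CPM. Their part in the lymphoid values was not tested.

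Of 12 myeloid priming genes tested, 1 fell and 0 rose. At an unadjusted p below 0.05, 0 were higher and 2 lower, beside 5.59% and 4.86% of all genes. Spi1 (chr2:91082390-91115756), encoding PU.1, the factor that drives myeloid and B cell fates, was at 26, 45.1 and 26.7 CPM in SS and 1.51, 2.16 and 7.61 CPM at 4 weeks and fell by 3.12 (SE 0.63, adjusted p = 0.0672). The groups were far apart, yet the call was lost without 4 week replicate 1 (adjusted p = 0.273), 4 week replicate 2 (0.238) or SS replicate 2 (0.141). Gfi1, which restrains proliferation and directs granulocyte fate, was at 0.0733, 9.12 and 0 CPM in SS and 0.565, 0 and 4.95 CPM at 4 weeks. Monocyte and macrophage markers summed to 693 to 762 CPM in SS and 352 to 589 CPM at 4 weeks, mostly Lyz2, with C1qa and Cd14 at 0 in all 6. Neutrophil markers summed to 79.4 to 110.8 and 23.1 to 69.3 CPM, with Ly6g at 0 in all 6. Both sums moved with Spi1, and their part in its value was not tested.

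Cell-cycle genes leaned upwards, but nearly all stayed short of the threshold. Of 50 genes of DNA replication and S phase, 1 rose and 0 fell, their median being 0.77 on the log2 scale, and at an unadjusted p below 0.05 17 were higher and 0 lower. Of 51 genes of G2 and mitosis, 1 rose and 0 fell, with a median of 1.05, and at an unadjusted p below 0.05 16 were higher and 2 lower. Over all genes, 5.59% were higher and 4.86% lower at that p. A total of 19 S phase and 26 G2 and mitosis genes lay entirely above SS and 0 and 2 entirely below, beside 9.24% and 7.4% of all genes. The S phase genes summed to 4049, 4049 and 4069 CPM in SS and 6711, 6405 and 5958 CPM at 4 weeks, and the G2 and mitosis genes to 3549, 3041 and 3206 against 6274, 5793 and 5833 CPM. The SS samples were close together, and each 4 week sample was above them.

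Among the regulators of S phase, E2f8, an atypical repressor of the E2F family made in late S phase, was at 9.68, 9.17 and 12.7 CPM in SS and 64.7, 47.8 and 63 CPM at 4 weeks. It rose by 2.47 (SE 0.53, adjusted p = 0.0927), and the adjusted p was 0.152 to 0.302 in the 6 fits leaving out a compared library. A transcript on the other strand, Gm2788, overlaps E2f8, and strand use in the counting was not given. All 10 genes of nucleotide supply and replication-linked chromatin had a positive log2 difference. So had 15 of 19 genes of origin licensing and 15 of 16 of the fork and polymerases, beside 6577 of 13661 genes tested. Outside the lists, H2afz, the histone variant H2A.Z, rose from 2437, 2221 and 2327 CPM to 5768, 5122 and 5011 CPM (log2 1.19, SE 0.20, adjusted p = 0.0275), a call lost without 4 week replicate 1 (0.123) or SS replicate 2 (0.111).

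Among the kinetochore genes, Ska1, a subunit of the complex that couples chromosomes to spindle microtubules, was at 0, 0 and 0.205 CPM in SS and 14.8, 33.7 and 49.1 CPM at 4 weeks (adjusted p = 0.00952). Cenpw, another centromere protein that was not in the list, rose from 225, 234 and 229 CPM to 573, 477 and 433 CPM (log2 1.11, SE 0.20, adjusted p = 0.0423), and Stil, needed to duplicate centrioles, rose from 0.0733, 0.105 and 1.38 CPM to 33.5, 20 and 25.2 CPM (adjusted p = 0.0628). The groups did not overlap in any of the 3 genes, which was a condition of a rule that named them. Ska1 kept its call in the 6 fits leaving out a compared library. Cenpw lost its call in all but the fit without 4 week replicate 3, and Stil in all but the fit without SS replicate 3 (adjusted p up to 0.21 in both). Mki67, the proliferation marker KI-67, was at 98.1, 112 and 135 CPM in SS and 346, 251 and 145 CPM at 4 weeks (log2 difference 1.10, SE 0.42, adjusted p = 0.398). All 12 mitotic kinases and cyclins had a positive log2 difference, beside 6577 of 13661 genes tested, and 0 were called. DESeq2 called 7 S phase genes higher and 0 lower and 5 mitotic genes higher and 1 lower, and limma-voom called 0 and 1.

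The genes of G1 control did not share that direction. Of 22 tested, edgeR and limma-voom called 0 and DESeq2 1 higher and 3 lower, with a median of -0.29. At an unadjusted p below 0.05, 2 were higher and 2 lower, beside 5.59% and 4.86% of all genes. Cdk6, the kinase that takes HSCs out of quiescence, was at 103, 135 and 162 CPM in SS and 288, 288 and 228 CPM at 4 weeks, without overlap (log2 difference 1.01, SE 0.32, adjusted p = 0.319). Ccnd2 and Cdk4, its cyclin partner and its sister kinase, overlapped at 335 to 580 and 251 to 447 CPM in SS and 359 to 427 and 364 to 411 CPM at 4 weeks. Of 35 genes of MYC and ribosome biogenesis, edgeR and limma-voom called 0 and DESeq2 3 higher and 1 lower, with 4 higher and 1 lower at an unadjusted p below 0.05 and a median of 0.36. Npm1, the nucleolar chaperone, was at 1906, 2392 and 3155 CPM in SS and 5219, 4987 and 4484 CPM at 4 weeks (adjusted p = 0.205), Nhp2 had a log2 difference of 0.17 (SE 0.28), and Myc itself was at 100 to 107 CPM in SS and 54.4 to 92 CPM at 4 weeks (adjusted p = 0.717).

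Of 76 nuclear genes of oxidative phosphorylation, 1 rose and 1 fell, with a median of 0.21. At an unadjusted p below 0.05, 17 were higher and 5 lower, beside 5.59% and 4.86% of all genes. Entirely above SS lay 22 members and entirely below it 11, beside 9.24% and 7.4% of all genes. Atp5g3 (chr2:73908447-73911326), a ring subunit of ATP synthase, was at 401, 477 and 424 CPM in SS and 941, 946 and 819 CPM at 4 weeks and rose by 1.06 (SE 0.21, adjusted p = 0.0665). Ndufa8, an accessory subunit of complex I, was at 430, 506 and 377 CPM in SS and 243, 163 and 251 CPM at 4 weeks and fell by 1.00 (SE 0.22, adjusted p = 0.0927). Neither call held in any of the 6 fits that left out a compared library, where the adjusted p was at least 0.121. The complexes differed in their medians, 0.39 for the 15 genes of complex V, 0.28 for the 10 of complex IV and -0.14 for the 37 of complex I.

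Slc25a5, the ADP/ATP carrier of the inner mitochondrial membrane that was not in the list, had one of the smallest adjusted p-values, and it is named here after its values were seen. It rose by 0.98 (SE 0.14, adjusted p = 0.00677), just under the fold threshold, from 1229, 1326 and 1326 CPM to 2737, 2386 and 2536 CPM. Of 12 mitochondrially encoded genes edgeR, DESeq2 and limma-voom called 0. At an unadjusted p below 0.05, 1 was higher and 1 lower, beside 5.59% and 4.86% of all genes. mt-Cytb and mt-Co1, of complexes III and IV, overlapped between the groups, with log2 differences of 0.36 (SE 0.26) and 0.31 (SE 0.30). The share of counts from the mitochondrial genome was 6.70% to 7.08% in SS and 6.81% to 9.15% at 4 weeks. Of 28 genes of glycolysis and hypoxia edgeR and limma-voom called 0 and DESeq2 2 higher and 1 lower, with 2 and 2 at an unadjusted p below 0.05 and a median of 0.41. Ldha and Gapdh had log2 differences of 0.58 (SE 0.25, adjusted p = 0.449) and 0.56 (SE 0.32, adjusted p = 0.569).

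**Figure D4:**
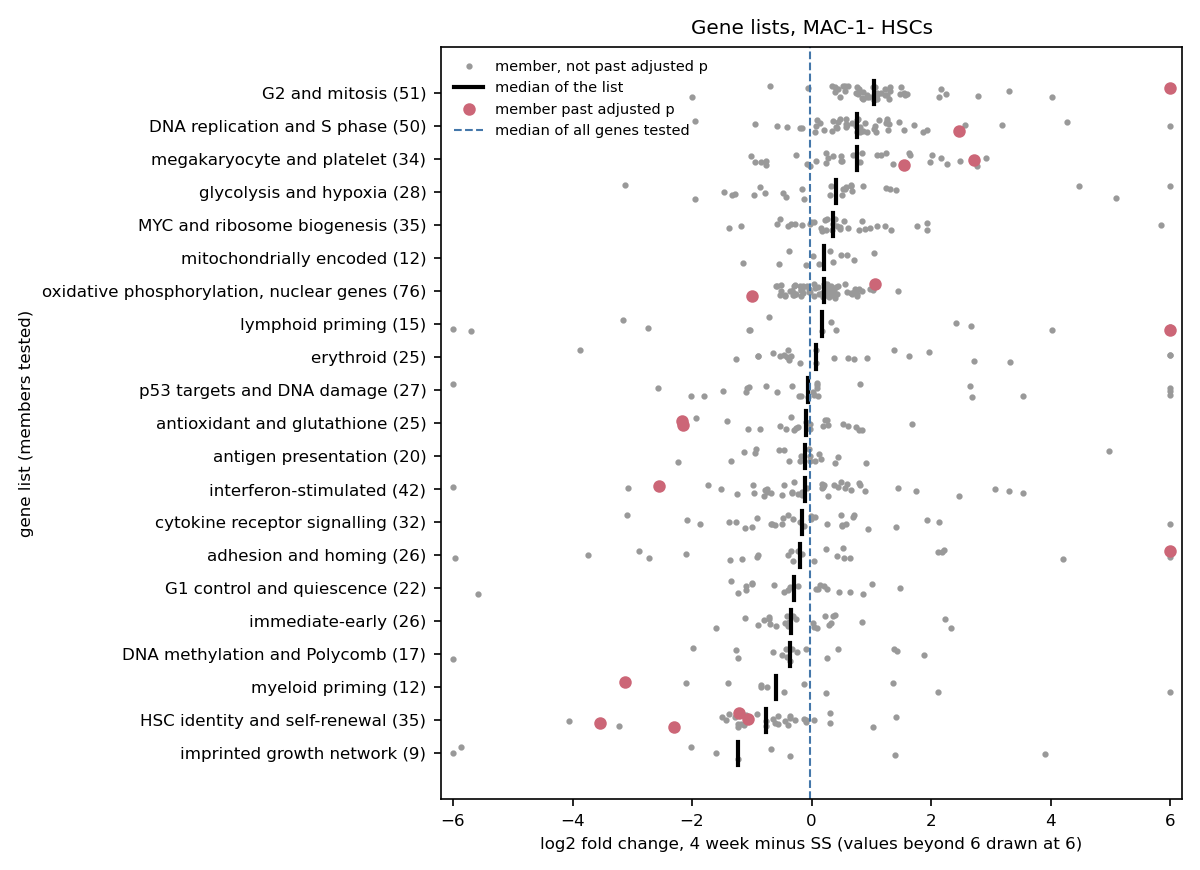
Log2 fold change (4 week minus SS, horizontal axis) of every tested member of the 21 gene lists (vertical axis, number tested in parentheses), with the list median as a black bar and members past the adjusted p in red. The medians run from -1.23 for the imprinted genes to 1.05 for G2 and mitosis, against -0.03 for all genes (dashed line).

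Of 42 interferon-stimulated genes tested, 1 fell and 0 rose, and the median was -0.12. At an unadjusted p below 0.05, 1 was higher and 2 lower, beside 5.59% and 4.86% of all genes. Ifitm1 (chr7:140967221-140969825), a membrane protein that blocks entry of viruses and is high in stem cells, was at 4110, 5162 and 4665 CPM in SS and 689, 983 and 707 CPM at 4 weeks. It fell by 2.55 (SE 0.18, adjusted p = 7.81e-06), the smallest adjusted p of all genes, and passed in every alternative with an adjusted p of at most 0.0230. Ifitm1 belongs to a family of close paralogs, and how reads shared by them were counted was not given. The call of this gene alone does not describe the list, since 20 members had a positive and 22 a negative log2 difference. Of 20 genes of antigen presentation edgeR and limma-voom called 0 and DESeq2 1 higher and 2 lower, with 1 higher and 3 lower at an unadjusted p below 0.05. B2m and H2-K1, which form class I molecules, had log2 differences of -0.03 (SE 0.20) and -0.47 (SE 0.17, adjusted p = 0.375).

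Among 26 immediate-early genes edgeR and limma-voom called 0 and DESeq2 2 lower. At an unadjusted p below 0.05, 1 was higher and 4 lower, beside 5.59% and 4.86% of all genes. Rgs1 and Fos, the highest of them, overlapped, at 742 to 1289 and 954 to 1520 CPM in SS and 1061 to 1527 and 854 to 1131 CPM at 4 weeks. Of 26 genes of adhesion and homing, 1 was called higher and 0 lower, with 2 and 2 at an unadjusted p below 0.05 and a median of -0.19. Cxcr4, the receptor that holds HSCs in the marrow, overlapped at 12.1, 55 and 58.9 CPM in SS and 86.6, 70.4 and 24 CPM at 4 weeks, and Alcam at 18.1, 90.2 and 1.69 against 6.84, 1.06 and 6.94 CPM. Of 32 genes of cytokine receptor signalling edgeR and limma-voom called 0 and DESeq2 4 lower, with 1 higher and 4 lower at an unadjusted p below 0.05, and Jak1 had a log2 difference of 0.26 (SE 0.25). Of 27 p53 targets and DNA damage genes edgeR and limma-voom called 0 and DESeq2 3 higher, with 2 higher and 1 lower at an unadjusted p below 0.05. Ccng1 and Mdm4 lay below SS in every 4 week sample, with log2 differences of -0.58 (SE 0.35) and -0.76 (SE 0.40) that did not pass.

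Of 25 antioxidant and glutathione genes, 2 fell and 0 rose, both of them glutathione transferases, enzymes that conjugate electrophiles or reduce lipid peroxides. At an unadjusted p below 0.05, 3 members were higher and 3 lower, beside 5.59% and 4.86% of all genes. Gstm1 (chr3:108012255-108017973) was at 361, 605 and 268 CPM in SS and 88.9, 98.6 and 87.6 CPM at 4 weeks and fell by 2.17 (SE 0.28, adjusted p = 0.00392). Mgst1 (chr6:138140316-138156755), the microsomal enzyme, was at 229, 150 and 134 CPM in SS and 33.6, 37.6 and 44.2 CPM at 4 weeks and fell by 2.15 (SE 0.32, adjusted p = 0.00952). In both genes the 4 week samples lay close together and below every SS sample. Gstm1 has close paralogs in a gene cluster, with the same limit as for Ifitm1. The peroxiredoxins and related genes of the list leaned the other way, with a median of 0.27 over 13 genes against -0.37 over the 12 glutathione enzymes. The sum of the list, 10422 to 10531 CPM in SS and 10330 to 11417 CPM at 4 weeks, did not separate the groups.

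Of 17 genes of DNA methylation and Polycomb edgeR and limma-voom called 0 and DESeq2 1 higher and 1 lower. At an unadjusted p below 0.05, 3 were higher and 1 lower, beside 5.59% and 4.86% of all genes. Bmi1 and Eed had log2 differences of 0.25 (SE 0.41) and -0.09 (SE 0.41). Of 9 imprinted genes tested edgeR and limma-voom called 0 and DESeq2 1 lower, with 0 higher and 1 lower at an unadjusted p below 0.05. Phlda2, an imprinted growth restrictor, was at 57.5, 56.4 and 78.2 CPM in SS and 23.3, 18 and 21.9 CPM at 4 weeks (adjusted p = 0.554), and Grb10, an adaptor that dampens insulin signalling, overlapped between the groups.

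Several genes with strong calls were in none of the lists. Plac8 (chr5:100553725-100572245), a small cysteine-rich protein of myeloid and lymphoid progenitors, rose from 276, 232 and 342 CPM in SS to 858, 946 and 715 CPM at 4 weeks (log2 1.57, SE 0.24, adjusted p = 0.0142). Cd53, a tetraspanin of leukocytes, had 1 count over the 3 SS libraries and 49.7, 42.7 and 7.49 CPM at 4 weeks. Its log2 difference was 10.33 (SE 1.80, adjusted p = 0.0332). The ratio of the pooled counts was 1812, with an exact 95% interval of 325 to 71610. That interval covers counting error alone and leaves out the spread between libraries. Pbx3, a homeodomain partner of HOX proteins, was at 0, 0.262 and 0.308 CPM in SS and 39.2, 32 and 43.5 CPM at 4 weeks (adjusted p = 0.0793), with another transcript, C79798, overlapping it. Cd53 and Pbx3 had almost no count in SS MAC-1- HSCs rather than a graded change. In SS MAC-1low HSCs, however, Pbx3 was at 49.2, 31.9 and 28.8 CPM and Cd53 at 15.8, 23 and 0 CPM. Stil, described above, was at 30.1, 10.1 and 49.3 CPM there. Dzip1, a protein of the ciliary base, was at 0 in all SS MAC-1- libraries and at 1.76, 4.36 and 12.6 CPM at 4 weeks. The 4 week mean of 6.25 CPM was 35.3 times a floor of 3 counts per library, which allows for counting error only. That floor was 0.177 CPM, and the lowest 4 week sample was at 1.76 CPM. In SS MAC-1low HSCs Dzip1 was at 0.157, 3.58 and 3.3 CPM. Gtpbp8, Khdrbs1 and Ccdc9 were also higher, with adjusted p-values of 0.0586 to 0.0665. Gtpbp8 and Khdrbs1 each kept their call in 1 of the 6 fits leaving out a compared library, and Ccdc9 in 0 (0.103 to 0.263). Ccdc9 had 4, 2 and 2 counts in the SS MAC-1- libraries and was at 30, 6.04 and 9.23 CPM in SS MAC-1low HSCs. Without SS replicates 1, 2 or 3 the adjusted p of Cd53 was 0.101, 0.121 and 0.129, and Pbx3 lost its call in each of the 6 fits (0.15 to 0.21). Dzip1 kept its call only without 4 week replicate 1.

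Among the lower genes, Ccl4 (chr11:83662584-83664683), the chemokine MIP-1 beta, was at 277, 212 and 307 CPM in SS and 34.3, 32.1 and 28.6 CPM at 4 weeks and fell by 3.07 (SE 0.36, adjusted p = 0.00176). Zfp36l2, an RNA-binding protein that destabilizes AU-rich transcripts, was at 692, 759 and 760 CPM in SS and 283, 338 and 343 CPM at 4 weeks and fell by 1.20 (SE 0.15, adjusted p = 0.00351). Gm19590 (RP23-329A21.3 in the deposited table), a transcript of unknown function, was at 843, 850 and 612 CPM in SS and 148, 200 and 120 CPM at 4 weeks and fell by 2.30 (SE 0.22, adjusted p = 0.000212). It lies at chr5:75833035-75835645, 176313 bases beyond the end of Kit, with 0 annotated protein-coding genes between them. Il4, the cytokine interleukin 4, fell from 146, 150 and 103 CPM to 31.4, 11.3 and 37.5 CPM (log2 -2.31, SE 0.44, adjusted p = 0.0533). Malat1, a nuclear long noncoding RNA, fell from 5927, 6438 and 5045 CPM to 1802, 1430 and 2046 CPM (log2 -1.72, SE 0.32, adjusted p = 0.05). Pdzk1ip1, Ramp1, Lst1, Cd63 and Zfp467 also fell, with log2 differences of -1.26, -1.29, -1.81, -1.14 and -2.12. Without 4 week replicate 1, the calls of Pdzk1ip1 (adjusted p = 0.134), Il4 (0.21) and Malat1 (0.21) were lost. Il4, Malat1, Ramp1, Lst1, Cd63 and Zfp467 each lost their call in at least 4 of the 6 fits leaving out a compared library (adjusted p up to 0.273). Ccl4, Zfp36l2 and Gm19590 kept theirs in all 6.

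Whether these differences were particular to MAC-1- HSCs was tested against the same contrast in MAC-1low HSCs, which shares no samples with it. The interaction of time and MAC-1 level was past both thresholds in 8 genes (0.0586%), 1 (Ska1, 0.00732%) with a more positive and 7 (0.0512%) with a more negative difference in MAC-1- HSCs. At an unadjusted p below 0.05 there were 1192 genes (8.73%). Ifitm1 fell by 2.55 in MAC-1- and had a log2 difference of -1.07 in MAC-1low HSCs, where it went from 3122 to 4051 CPM at SS to 1565 to 2005 CPM at 4 weeks. The interaction was -1.48 (SE 0.24, adjusted p = 0.0583). Mgst1 was at 117 to 152 CPM in SS MAC-1low and 145 to 363 CPM in 4 week MAC-1low HSCs, so that its log2 differences had opposite signs, -2.15 and 0.80 (interaction -2.95, SE 0.43, adjusted p = 0.0583).

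Fos was not called in MAC-1- HSCs, where its log2 difference was -0.38, but went from 687 to 837 CPM in SS MAC-1low to 1489 to 1650 CPM in 4 week MAC-1low HSCs (interaction -1.396, SE 0.22, adjusted p = 0.0583). Zfp36l2 and Gm19590 had interactions of -1.19 (SE 0.21, adjusted p = 0.092) and -1.87 (SE 0.29, adjusted p = 0.0583), and both were at lower levels in 4 week MAC-1- HSCs than in any sample of the other populations. Ska1 was already at 10.85 to 54.55 CPM in SS MAC-1low HSCs, where MAC-1- HSCs had next to none, and at 24.7 to 63.6 CPM in 4 week MAC-1low HSCs (interaction 8.09, SE 1.4, adjusted p = 0.092). Ccl4 and Cdk17, a cyclin-dependent kinase, completed the 8, and Cdk17 is named after its values were seen, with log2 differences of -1.01 in MAC-1- and 0.93 in MAC-1low HSCs.

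The interaction count was sensitive to the libraries used. It was 0 when replicate 1 of 4 week MAC-1-, replicates 2 or 3 of SS MAC-1low or replicate 4 of 4 week MAC-1low was left out, and 1 when replicate 3 of 4 week MAC-1- or replicate 1 of 4 week MAC-1low was. It was 4 or 5 when replicate 2 of 4 week MAC-1-, or replicate 3 of 4 week MAC-1low or of MAC-1+, was left out, and 13 to 17 when replicates 1 or 2 of SS MAC-1- or replicate 1 of 4 week MAC-1+ was. DESeq2 and limma-voom gave 727 and 15. Pf4, not among the 8 genes (interaction 2.19, adjusted p = 0.228), was at a mean of 378 ± 150 CPM (SD, n = 3) in SS MAC-1low and 545 ± 226 CPM (SD, n = 4) in 4 week MAC-1low HSCs, against 755 ± 229 and 4957 ± 1310 CPM (SD, n = 3 each) in MAC-1- HSCs.

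**Figure D5:**
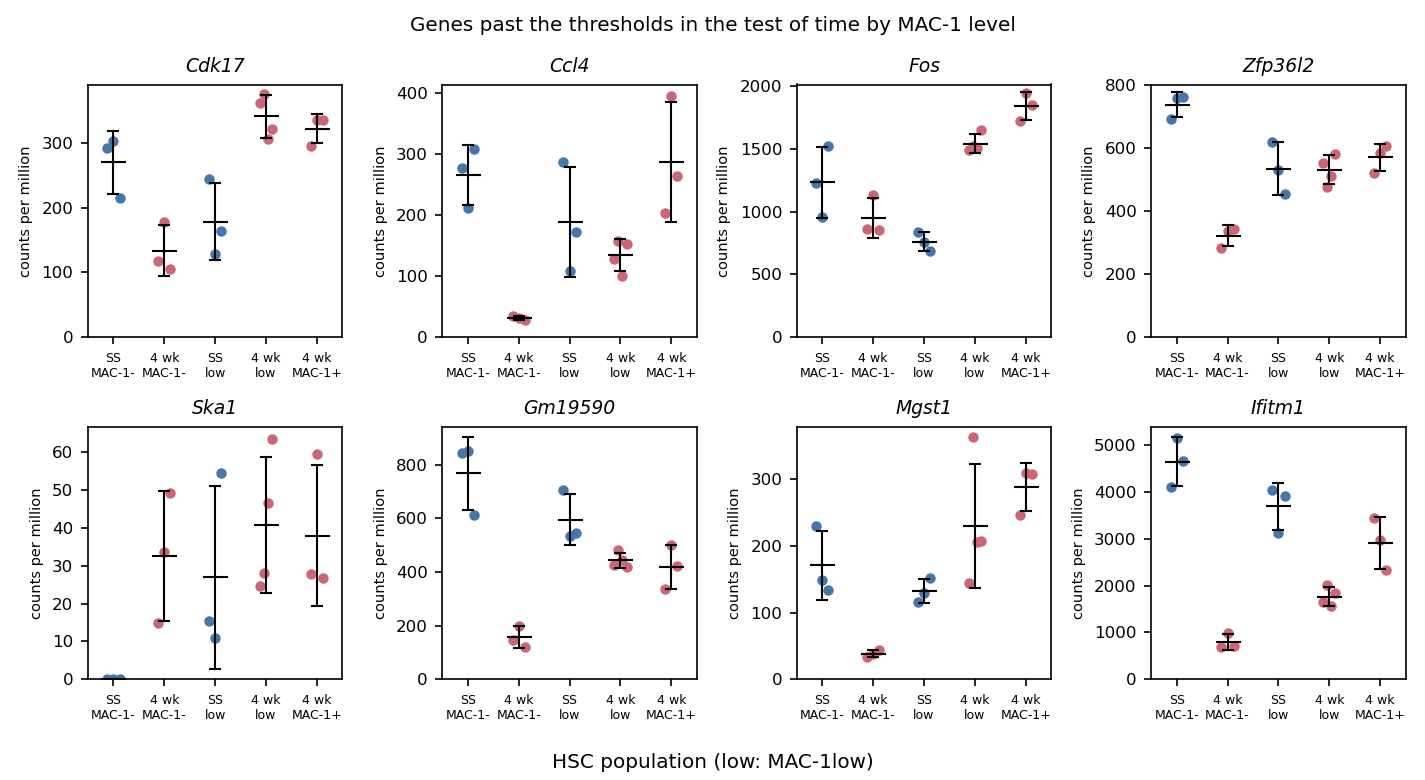
CPM (vertical axes from 0) of the 8 genes past both thresholds in the test of time by MAC-1 level, in the SS (blue) and 4 week (red) samples of each HSC population, with the mean and SD as black bars. Ccl4, Zfp36l2, Gm19590, Mgst1 and Ifitm1 are lowest in the 3 4 week MAC-1- samples, and Ska1 is near 0 only in SS MAC-1- HSCs.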

How the data were processed

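RNA of sorted HSCs was amplified with SMART-Seq v4, made into libraries with Nextera XT and sequenced on a NextSeq 500. The authors processed the reads with nf-core rnaseq and STAR, and DESeq2 is named in the submitters' processing notes. The read counter, genome build, annotation and use of strand are not stated there or in the labels. The deposited values were raw counts per gene (46078 genes, 16 samples), with no normalization. Of the gene identifiers 97.97% matched GENCODE M21 (GRCm38), which gave coordinates. Totals were 13781278 to 28580658 counts, and a count of 0 allowed up to 3 counts per library (counting error only, since the reads carried no molecular identifiers).

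Groups came from the sample labels. All 16 samples were fitted in 1 edgeR 4.0.16 quasi-likelihood model (robust, TMM, filterByExpr, 13661 genes) in R 4.3.3, with the contrast 4 week minus SS in MAC-1- HSCs and its interaction with the same contrast in MAC-1low HSCs. Genes were called at a Benjamini-Hochberg adjusted p under 0.1 with a log2 fold change beyond 1, and list members on the adjusted p alone. CPM are counts relative to the TMM-scaled library. Alternatives were DESeq2 1.42.0, limma-voom (limma 3.58.1), other scaling and filters, thinned counts, the compared groups alone, the number of detected genes as covariate, a replicate block and each library left out. The scripts were tested on simulated data. Named genes were the sort markers, up to 15 called genes per direction with the smallest adjusted p, a mean of at least 50 scaled counts and no overlap of samples, every called list member, up to 2 highest members of lists without a call, genes the study names for its RNA-seq together with Mki67, Myc and Cdk6, and up to 5 interactions per direction. Members and lists (780 entries, 778 matched) were chosen with earlier results of these data known. Other cell types were read from marker lists. Some genes are not reported here, although the counts over all genes and lists include them.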

Additional observations from a re-analysis of the deposited data

Results flagged for a closer look

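In 8 genes the difference between 4 weeks and SS was not the same in MAC-1- and MAC-1low HSCs, by the test of time by MAC-1 level (edgeR quasi-likelihood test, adjusted p under 0.1). On the log2 scale the difference of the differences was -1.396 for Fos, -1.483 for Ifitm1, -2.947 for Mgst1, -1.872 for Gm19590 (RP23-329A21.3 in the deposited table), -1.186 for Zfp36l2, -2.580 for Ccl4, -1.944 for Cdk17 and 8.086 for Ska1. The direction was the same in all 25 alternatives for each of the 8. Of these alternatives, the call was lost in 6 for Mgst1, in 8 each for Fos, Ifitm1 and Gm19590, in 15 for Cdk17, in 16 for Ccl4 and in 17 each for Ska1 and Zfp36l2.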

How the results depend on the processing

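The 52 called genes (25 higher, 27 lower) became 966 (518 and 448) with DESeq2, 80 (41 and 39) with limma-voom, 74 (38 and 36) with no filter on low counts, 6 (2 and 4) with the compared groups alone, 15 (7 and 8) with thinned counts, 24 (13 and 11) with detected genes counted as a covariate and 17 (8 and 9) at an adjusted p under 0.05. Leaving out single libraries gave 17 to 48 genes (8 to 22 higher, 9 to 29 lower), 0 to 17 interactions and 7 to 17 called list members. The 15 called list members became 83 with DESeq2, 2 with the compared groups alone, and 7 each with thinned counts or the covariate. The 8 interactions became 727 with DESeq2, 15 with limma-voom, 31 without the filter, 5 with thinned counts, 4 with the covariate and 0 at an adjusted p under 0.05. With a replicate block there were 22 genes (8 higher, 14 lower) and 0 interactions. Same-numbered samples did not deviate together (r = 0.00913, -0.00272 and -0.00499), and not every sample correlated best with its own number. The causes were not tested. limma-voom moved the median of all genes to 0.19.

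None of the 35 called named genes changed direction. Among the 52 others, Itgam was at -4.32 and B2m at 0.02 and Gata1 at -0.14 without 4 week MAC-1- replicate 2. Nhp2 was at -0.00648 and B2m at 0.03 without 4 week MAC-1- replicate 3, and Ikzf1 at -0.18 without replicate 1. B2m was at 0.10 without SS MAC-1- replicate 1, Socs2 at 0.092, Cd86 at 4.60 and Gfi1 at 5.57 without replicate 2, and Eed at 0.39 and Gata1 at -0.51 without replicate 3. With thinned counts mt-Co1 was at -0.065 and Socs2 at 0.19, with limma-voom Eed at 0.11 and Gfi1 at 0.25, and with the covariate Eed at 0.18. Over the libraries left out 1 at a time, the log2 difference ran from -4.32 to 3.33 for Itgam, -0.0065 to 0.31 for Nhp2, -0.15 to 0.10 for B2m, -0.30 to 0.39 for Eed, -0.32 to 0.092 for Socs2, -0.51 to 0.58 for Gata1, -0.18 to 0.75 for Ikzf1, -10.26 to 4.60 for Cd86 and -3.48 to 5.57 for Gfi1. Depth limits what can be said of genes near 0 counts.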
